A study of Rattus norvegicus with 12 samples.

Results

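Intrinsic cardiac neurons are the nerve cells of the ganglia that lie in the epicardial fat over the atria. Most of them use acetylcholine, which is made by Chat (choline acetyltransferase) and loaded into vesicles by Slc18a3 (the vesicular acetylcholine transporter), whereas sympathetic fibers and chromaffin-like cells make noradrenaline through Th (tyrosine hydroxylase) and Dbh (dopamine beta-hydroxylase). Messenger RNA is held mostly in the cell body, so the processes of sympathetic neurons, whose bodies lie outside the heart, bring little of it into atrial tissue. Neuronal genes of both kinds were examined in left atrial RNA: the light and medium neurofilament chains Nefl and Nefm, the intermediate filament peripherin (Prph), the vesicle fusion genes Snap25 and Syt1, and the transmitter genes Chat, Slc18a3, Th and Dbh. These 9 genes, of 21239 with counts, were found by symbol in the gene table. They were chosen by their values in ARNI replicate 3, so their level in that library is given as a description, with no test.

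The study sequenced poly(A) RNA of the left atrium of male rats, 14 weeks old at purchase and treated daily for 4 weeks, from 4 groups of 3 libraries. Saline (7.5 mL/kg/d) was given to WKY rats, a strain with normal blood pressure, and to SHRs, an inbred strain that becomes hypertensive. The ARB group were SHRs given valsartan (30 mg/kg/d), an angiotensin receptor blocker, and the ARNI group were SHRs given sacubitril/valsartan (60 mg/kg/d), which adds a neprilysin inhibitor. Total counts per library ranged from 11252361 to 15823525. Levels are given in CPM, that is, scaled to the total count of each library. A count of 0 allows up to 3 reads, which stood for 0.190 to 0.267 CPM, and such limits cover counting error only.

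Several libraries stood apart. In the 6 libraries named WKY or SHR, the strain words of the title contradict the bracketed library name, and all 12 carry a WKY strain tag; groups were taken from the library names. Myl7, the atrial myosin light chain, was at 0.889 to 15.9 CPM in the WKY libraries and at 9.67 CPM in ARNI replicate 2, against 4478 to 11547 CPM in the other 8, so the defining marker of the labelled tissue was nearly absent from 4 libraries. Myl2, the ventricular light chain, was at 2298 to 4161 CPM in those 4 and also in SHR replicate 2 and ARB replicate 3, and at most at 24.2 CPM elsewhere. The fat cell marker Adipoq, the adipokine adiponectin, was at 192 CPM in ARB replicate 2 and at 61.7 CPM in ARNI replicate 3. It was at most at 4.71 CPM elsewhere.

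Chat and Slc18a3 are neighbors: Slc18a3 lies within the span of Chat on the same strand, and its annotated start is 602 bases downstream of that of Chat. The 4 transmitter genes carry the contrast between the cholinergic and noradrenergic patterns below, so the stretch from 250 bases before to 50 bases after the annotated start of each is shown. The sequences are from RefSeq on GRCr8, whereas the submitters' notes name Rnor_6.0 for the reads. Windows were found for 6 of the 9 genes. Capitals mark matches, on either strand, to TGACGTCA (the cyclic AMP response element) and to GGGCGG or its reverse complement CCGCCC (the GC box). The windows lie at chr16:7723367-7723666 (minus strand) for Chat, chr16:7722765-7723064 (minus) for Slc18a3, chr1:207508169-207508468 (minus) for Th and chr3:30886078-30886377 (plus) for Dbh.
Chat: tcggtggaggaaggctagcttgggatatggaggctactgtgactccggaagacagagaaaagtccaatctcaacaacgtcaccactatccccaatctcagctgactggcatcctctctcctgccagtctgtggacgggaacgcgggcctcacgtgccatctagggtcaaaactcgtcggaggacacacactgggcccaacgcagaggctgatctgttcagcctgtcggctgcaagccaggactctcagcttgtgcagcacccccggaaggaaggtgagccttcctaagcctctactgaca
Slc18a3: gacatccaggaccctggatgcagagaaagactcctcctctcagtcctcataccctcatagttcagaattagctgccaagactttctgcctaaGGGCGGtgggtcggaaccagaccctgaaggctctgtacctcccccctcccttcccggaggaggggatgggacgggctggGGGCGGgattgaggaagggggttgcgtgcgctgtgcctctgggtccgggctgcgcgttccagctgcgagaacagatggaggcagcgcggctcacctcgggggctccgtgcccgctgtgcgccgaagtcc
Th: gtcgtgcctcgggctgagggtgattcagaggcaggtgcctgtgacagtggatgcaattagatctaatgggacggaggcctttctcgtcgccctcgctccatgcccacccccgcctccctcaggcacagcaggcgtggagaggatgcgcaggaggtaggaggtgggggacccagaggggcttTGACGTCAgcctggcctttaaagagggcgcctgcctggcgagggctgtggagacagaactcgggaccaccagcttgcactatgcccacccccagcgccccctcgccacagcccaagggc
Dbh: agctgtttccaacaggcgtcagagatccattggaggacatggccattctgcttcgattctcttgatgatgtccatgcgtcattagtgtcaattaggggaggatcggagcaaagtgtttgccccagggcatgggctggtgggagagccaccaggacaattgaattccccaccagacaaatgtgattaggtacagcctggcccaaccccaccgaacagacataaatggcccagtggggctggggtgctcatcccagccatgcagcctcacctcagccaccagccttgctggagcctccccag

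The response element occurred once in these windows, in Th, where it begins 69 bases before the start; 1.83% of 33469 promoter windows of the same length held it. GC boxes began 158 and 79 bases before the start of Slc18a3, and 33.1% of promoters held at least 1. TAATTA, a core bound by homeodomain proteins (5.36% of promoters), TATAAA (14.2%) and TTCAGCACC, the left part of the element bound by the neuronal repressor REST (0.356%), had no match in the 4 windows on either strand. None of these motifs overlapped another in a window shown.

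Of the 9 genes, 8 were higher in ARNI replicate 3 than in any other library, and Th was not. A gene is called marked here if it had at least 10 counts in a library and at least 2 times the CPM of the next highest library, which was set to no less than 3 reads. The same 8 genes were marked in ARNI replicate 3. A gene can be marked only in the library where it is highest, and Th had fewer than 10 counts in every library. That 0 of the 9 were marked in the other 11 libraries thus follows from the definition. Among the 15330 genes with at least 10 counts in some library, 285 (1.86%) were marked in ARNI replicate 3, and 1747 (11.4%) had their highest level there. By the ratio to the next library, Slc18a3 ranked 1 and Nefl ranked 2 among those 15330 genes. The smallest ratio among the 8 was 4.18 (Prph), and that of Th was 0.164.

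**Figure D1:**
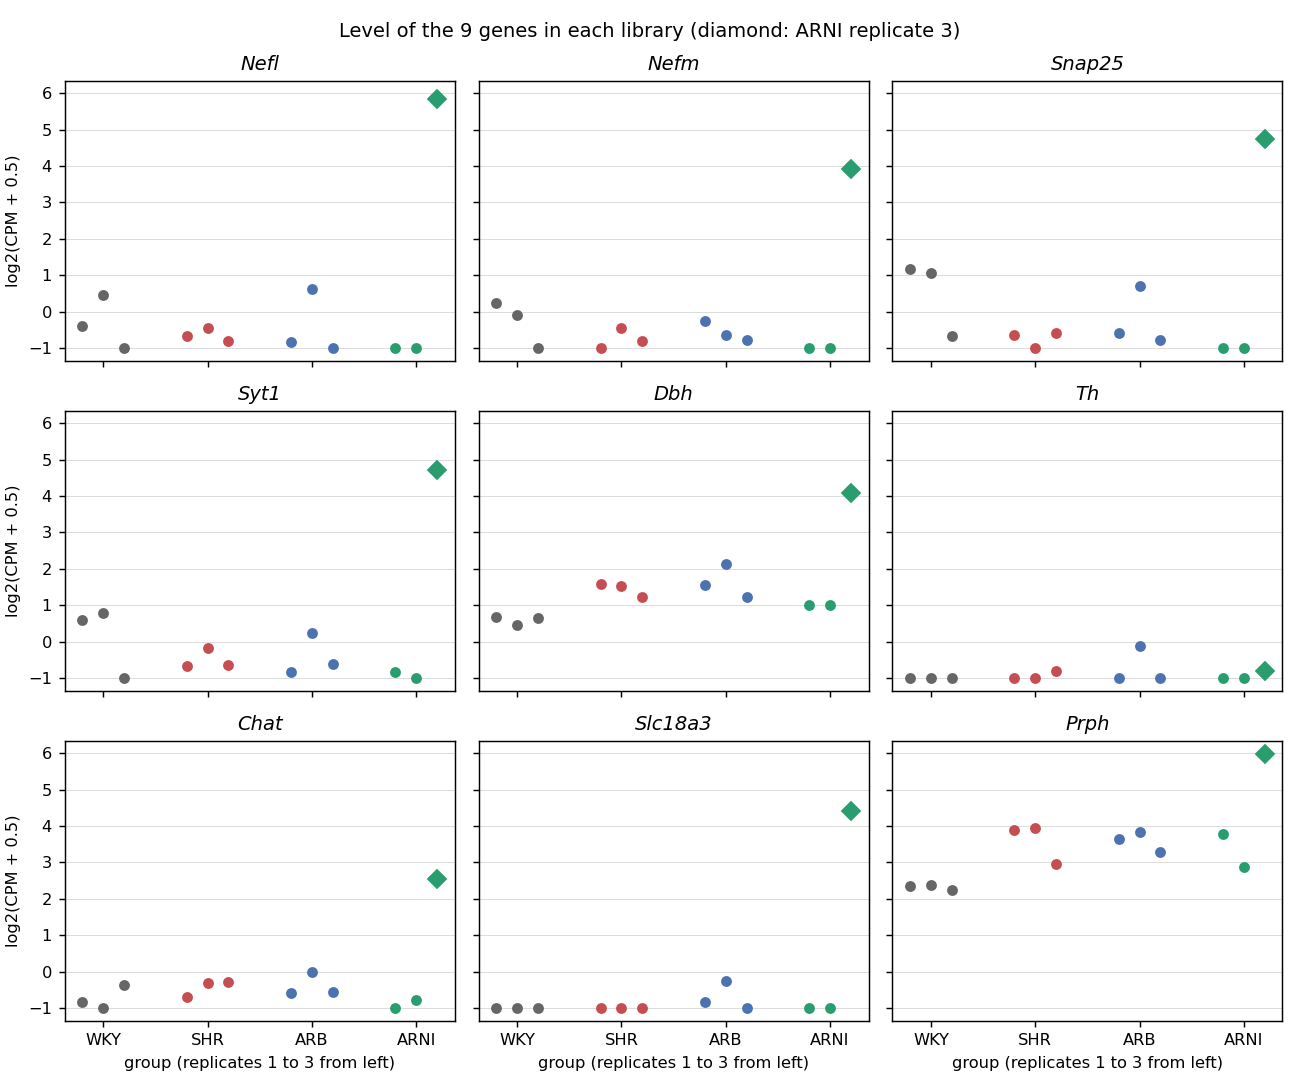
Level of each of the 9 genes as log2(CPM + 0.5) in every library, by group, with replicates 1 to 3 from left to right and ARNI replicate 3 as a diamond. The diamond is the highest point in 8 panels, and in Th it lies at 0.0678 CPM, below ARB replicate 2 at 0.413 CPM.

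Nefl, the chain that neurofilaments assemble on, had 838 reads in ARNI replicate 3, which was 56.9 CPM. The WKY libraries were at 0.256, 0.870 and 0 CPM, and the gene was at 0.134, 0.237 and 0.0677 in the SHR libraries, at 0.0661, 1.03 and 0 in the ARB libraries and at 0 in ARNI replicates 1 and 2. Only 35 reads of Nefl were counted in the other 11 libraries together. Its partner Nefm reached 14.7 CPM (217 reads), against 0.682, 0.435 and 0 CPM in the WKY libraries, 0, 0.237 and 0.0677 in the SHR libraries, 0.331, 0.138 and 0.0793 in the ARB libraries and 0 in the other 2 ARNI libraries. Both chains were therefore near the limit of detection outside ARNI replicate 3, and the groups overlapped there.

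Prph, the filament of peripheral neurons, was the member with the most reads. It was at 62.7 CPM (924 reads) in ARNI replicate 3 and at 13.2 and 6.84 CPM in ARNI replicates 1 and 2. It was detected in all libraries. WKY replicates 1 to 3 were at 4.60, 4.70 and 4.27 CPM, the SHR libraries at 14.4, 15.0 and 7.25 CPM and the ARB libraries at 12.0, 13.7 and 9.20 CPM. The WKY libraries were the 3 lowest of 12.

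Snap25, a membrane protein of the vesicle fusion machinery, was at 26.1 CPM in ARNI replicate 3. In the WKY libraries it stood at 1.75, 1.58 and 0.124 CPM, and at 0.135, 0 and 0.163 in the SHR libraries, 0.171, 1.12 and 0.0793 in the ARB libraries and 0 in the other ARNI libraries. Syt1, the calcium sensor of transmitter release, had 376 reads in ARNI replicate 3 (25.5 CPM), with 1.02, 1.22 and 0 CPM in WKY libraries, 0.134, 0.394 and 0.135 in the SHR libraries, 0.0661, 0.688 and 0.159 in the ARB libraries and 0.0632 and 0 in ARNI replicates 1 and 2. The next highest library was WKY replicate 1 for Snap25 and WKY replicate 2 for Syt1, and for both genes ARB replicate 2 followed these 2 WKY libraries. The expected counts of Snap25 and of Chat are not whole numbers, since reads that also matched elsewhere were divided between genes.

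Most reads of the cholinergic genes were those of ARNI replicate 3. Slc18a3 had 308 reads there (20.9 CPM, 95% exact Poisson interval 18.6 to 23.4), against 6 reads in the other 11 libraries together, of which 5 were in ARB replicate 2 (0.344 CPM) and 1 in ARB replicate 1 (0.0661 CPM), and it was at 0 in the remaining 9. Chat had an expected count of 79.1 in ARNI replicate 3 (5.37 CPM, interval 4.24 to 6.68). WKY libraries had 0.0639, 0 and 0.280 CPM, followed by 0.123, 0.313 and 0.320 in the SHR libraries, 0.171, 0.497 and 0.174 in the ARB libraries and 0 and 0.0778 in ARNI replicates 1 and 2. ARB replicate 2 was the next library for both genes, 60.8-fold below ARNI replicate 3 for Slc18a3 and 10.8-fold below for Chat.

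The noradrenergic genes did not move together. Th, which makes the first and limiting step from tyrosine, had 1 read in ARNI replicate 3 (0.0678 CPM, exact Poisson interval 0.00172 to 0.378), 6 reads in ARB replicate 2 (0.413 CPM), 1 read in SHR replicate 3 (0.0677 CPM) and 0 in the other 9 libraries. Dbh, which converts dopamine to noradrenaline, had 243 reads in ARNI replicate 3 (16.5 CPM). It was detected in every library: at 1.11, 0.870 and 1.07 CPM in the WKY group, 2.47, 2.37 and 1.83 in the SHR group, 2.45, 3.85 and 1.82 in the ARB group and 1.52 and 1.49 in ARNI replicates 1 and 2. In ARNI replicate 3 Dbh was thus 4.28-fold above the next library, and Th was at a single read.

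To set the 2 transmitter systems side by side free of scaling between libraries, reads of Chat and Slc18a3 were expressed as a share of the reads of Chat, Slc18a3, Th and Dbh. Reads were not divided by transcript length, so a share describes reads, and it can be set against the same share in other libraries but not read as a ratio of transcripts. In ARNI replicate 3 the share was 61.3% (387 of 631 reads, 95% exact Clopper-Pearson interval 57.4 to 65.1). In the other 11 libraries it ranged from 0% to 20% on 10 to 74 reads, and the highest was in WKY replicate 3 (3 of 15 reads, interval 4.33 to 48.1). ARB replicate 2, the library with the next most reads of these genes, had 12 cholinergic reads of 74 (16.2%, interval 8.67 to 26.6). Nearly all noradrenergic reads in every library were those of Dbh. With Chat against Th alone the share in ARNI replicate 3 was 98.8% (79 of 80 reads, interval 93.2 to 99.97), but this pair had at most 13 reads in any other library. With Slc5a7, the choline transporter of cholinergic terminals, added to the one side, and Slc18a2, Slc6a2 and Ddc (the vesicular monoamine transporter, the noradrenaline transporter and the enzyme that makes dopamine) to the other, it was 37.0% (661 of 1787 reads, interval 34.7 to 39.3), with 0% to 2.40% in the other libraries. Of the 1126 reads on the noradrenergic side in that count, 725 were those of Ddc and 156 those of Slc18a2. Both genes were within the range of the other 11 libraries, at 49.2 CPM for Ddc (19.4 to 50.1 elsewhere) and 10.6 CPM for Slc18a2 (6.84 to 13.6). Their reads are therefore not particular to ARNI replicate 3.

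**Figure D2:**
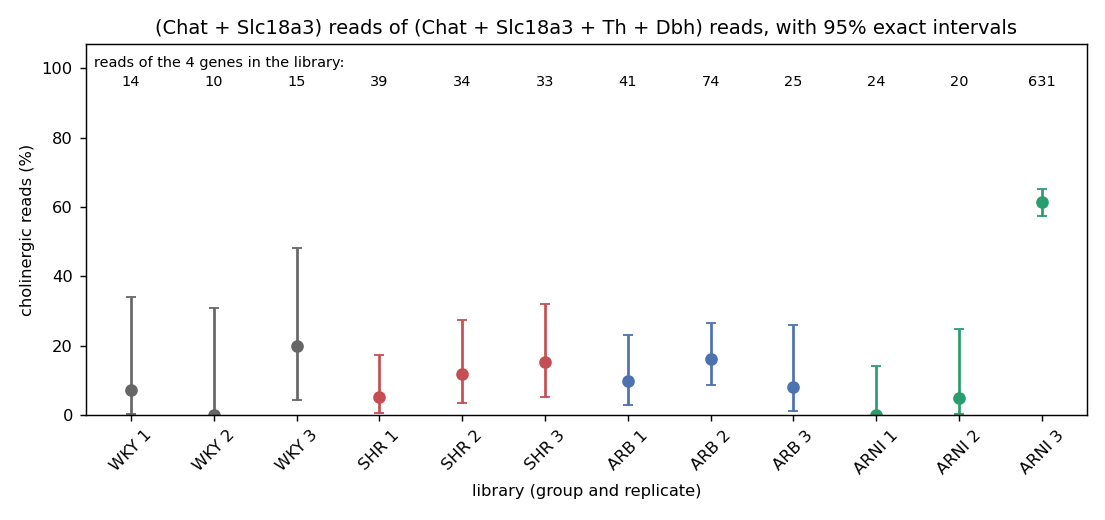
Share of Chat and Slc18a3 reads among the reads of Chat, Slc18a3, Th and Dbh in percent, by library, with 95% exact binomial intervals and the number of reads above. ARNI replicate 3 lies at 61.3% on 631 reads, and the other 11 libraries lie between 0% and 20%.

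Genes that act around the 2 transmitter systems were read from lists of 13 genes each. Of the cholinergic list, 5 genes were marked in ARNI replicate 3. Slc5a7 was at 18.6 CPM, against at most 0.781 CPM elsewhere. Several nicotinic receptor subunits of ganglia were marked too. Chrna3 was at 7.94 CPM (at most 0.275 elsewhere), Chrna7 at 8.52 CPM (at most 1.07) and Chrna5 at 2.47 CPM (at most 0.926). The fifth marked gene was Chrnb4. The subunit Chrnb2, at 0.543 CPM (at most 0.206 elsewhere), had 8 reads, too few to be marked. Ache, the esterase that ends the signal, was at 26.7 CPM and within the range of the others (7.47 to 29.7 CPM). The cotransmitter genes Vip (1 read) and Nos1 (2.38 CPM, range of the others 0.558 to 3.03) were not marked.

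Of the noradrenergic list, 2 genes were marked, among them the neurotrophin receptor Ngfr (22.4 CPM, at most 5.76 elsewhere). The genes of noradrenaline handling lay within the range of the other libraries. Slc18a2 was at 10.6 CPM in ARNI replicate 3 and at 6.84 to 13.6 CPM elsewhere. Ddc was at 49.2 CPM, with 19.4 to 50.1 CPM elsewhere, and Slc6a2 had 1 read. The sympathetic cotransmitter gene Npy was at 62.1 CPM, below ARB replicates 1 and 3 at 94.5 and 99.4 CPM, and the remaining 9 libraries were at 1.65 to 10.6 CPM. The genes of noradrenaline synthesis and transport therefore differed among themselves: Dbh was high, Ddc and Slc18a2 were within the range of other libraries, and Th and Slc6a2 had 1 read each.

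**Figure D3:**
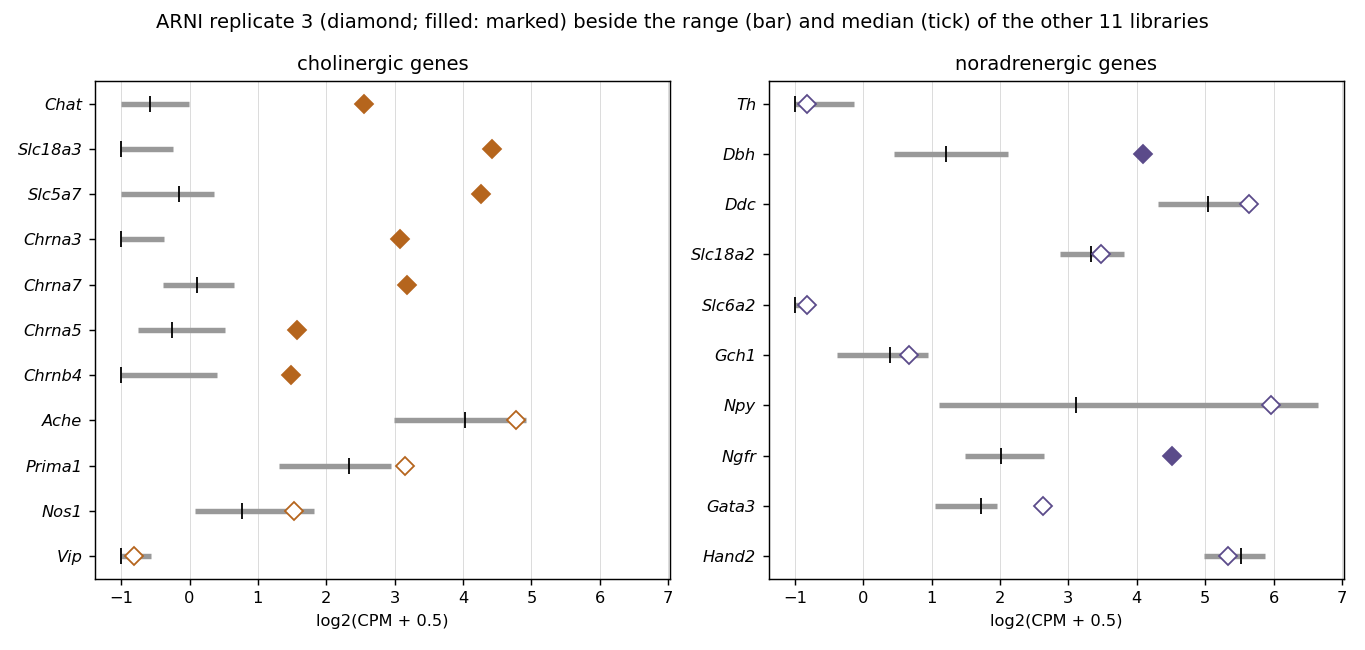
Level of cholinergic genes (left) and noradrenergic genes (right) as log2(CPM + 0.5) in ARNI replicate 3 (diamond, filled where marked), beside the range (bar) and the median (tick) of the other 11 libraries. The first 7 cholinergic genes and Prima1 lie right of their bars, and Ache, Nos1 and Vip lie on theirs. Among the noradrenergic genes Dbh, Ngfr and Gata3 lie right of their bars, whereas Th, Ddc, Slc18a2, Slc6a2, Gch1, Npy and Hand2 lie on theirs.

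Transcription factors of autonomic neurons were marked in 3 of 15 cases. Phox2a, which specifies autonomic neurons of both kinds, was at 6.14 CPM in ARNI replicate 3, and at most at 0.771 CPM elsewhere. Tlx2 had an expected count of 24.6 there and 0 in all other libraries. Hand2 and Gata3, which maintain noradrenergic neurons and are also expressed by other heart cells, were not marked: Hand2 was at 39.7 CPM (31.0 to 58.3 elsewhere) and Gata3 at 5.70 CPM (1.57 to 3.39 elsewhere).

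Neuronal genes outside the transmitter pathways were marked as well. Among 25 genes of the neuronal cytoskeleton and RNA binding, 14 were marked, and 23 had their highest level in ARNI replicate 3. Thy1, a surface glycoprotein of neurons, was at 80.2 CPM (at most 5.43 elsewhere), the neuronal tubulin Tubb3 at 70.6 CPM (at most 2.61), the growth-associated protein Stmn2 at 58.0 CPM (at most 4.33) and the ubiquitin hydrolase Uchl1 at 51.7 CPM (at most 7.57). For all 4 the next library was ARB replicate 2. Of 25 synaptic vesicle genes 7 were marked, led by Syp (26.3 CPM), Sv2c (24.8 CPM), Syn2 (16.0 CPM) and Cplx1 (15.0 CPM), all at most 3.99 CPM elsewhere. Of 20 neuronal channels and pumps 5 were marked, among them the sodium channel Scn9a at 6.05 CPM, the N-type calcium channel Cacna1b at 3.46 CPM and the serotonin receptor Htr3a at 0.882 CPM.

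Genes of secretory granules and chromaffin cells were marked in 11 of 16 cases. The granule genes Pcsk1n (30.9 CPM, at most 11.3 elsewhere), Ptprn (10.9 CPM, at most 2.24) and Ptprn2 (7.33 CPM, at most 0.707) were among them. Pnmt, which turns noradrenaline into adrenaline, was at 10.4 CPM, with 0.597 to 4.40 CPM elsewhere. Slc18a1, the vesicular monoamine transporter of chromaffin cells, was at 1.29 CPM and at most 0.640 CPM elsewhere. Of 14 neurotrophic ligands and receptors 5 were marked, among them Ngfr, Ret (16.2 CPM), Ntrk3 (14.3 CPM) and Gdnf (2.44 CPM). Some genes stand in more than 1 list. Over the 9 neuronal lists, 50 of 145 genes were marked, and 120 of the 145 had at least 10 counts in some library. Among all 15330 genes with that many counts, 1.86% were marked. The lists were chosen with earlier results of these data known, so these counts are a description.

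Lists of sensory neurons, glia and other cells were also read. None of 13 sensory neuron genes and 0 of 25 genes of Schwann cells and satellite glia were marked. The summed level of the glial genes was 1267 CPM in ARNI replicate 3 and 656 to 1074 CPM elsewhere, and 13 of the 25 were highest there. Sox10, the transcription factor of these cells, was at 33.5 CPM (at most 27.9 elsewhere). Of 7 smooth muscle genes 3 were marked: Acta2 (351 CPM, at most 168 elsewhere), Tagln (154 CPM, at most 40.4) and Cnn1 (24.2 CPM, at most 5.64). Of 12 adipocyte genes 1 was marked, the brown fat uncoupling protein Ucp1 (182 CPM, at most 15.6), and of 12 pacemaker and conduction genes 1 was marked, the sinus node factor Shox2 (87.4 CPM, at most 29.4). In the lists of atrial muscle (12 genes), ventricular muscle (8), epicardium and mesothelium (12), fibroblasts (9), endothelium (7), lung (8), lymphoid cells (9) and skeletal muscle (8), 0 genes were marked. The part that fat, smooth muscle or sinus node tissue had in the neuronal levels was not tested. In whole tissue, more cells of a type and more RNA per cell cannot be told apart.

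**Figure D4:**
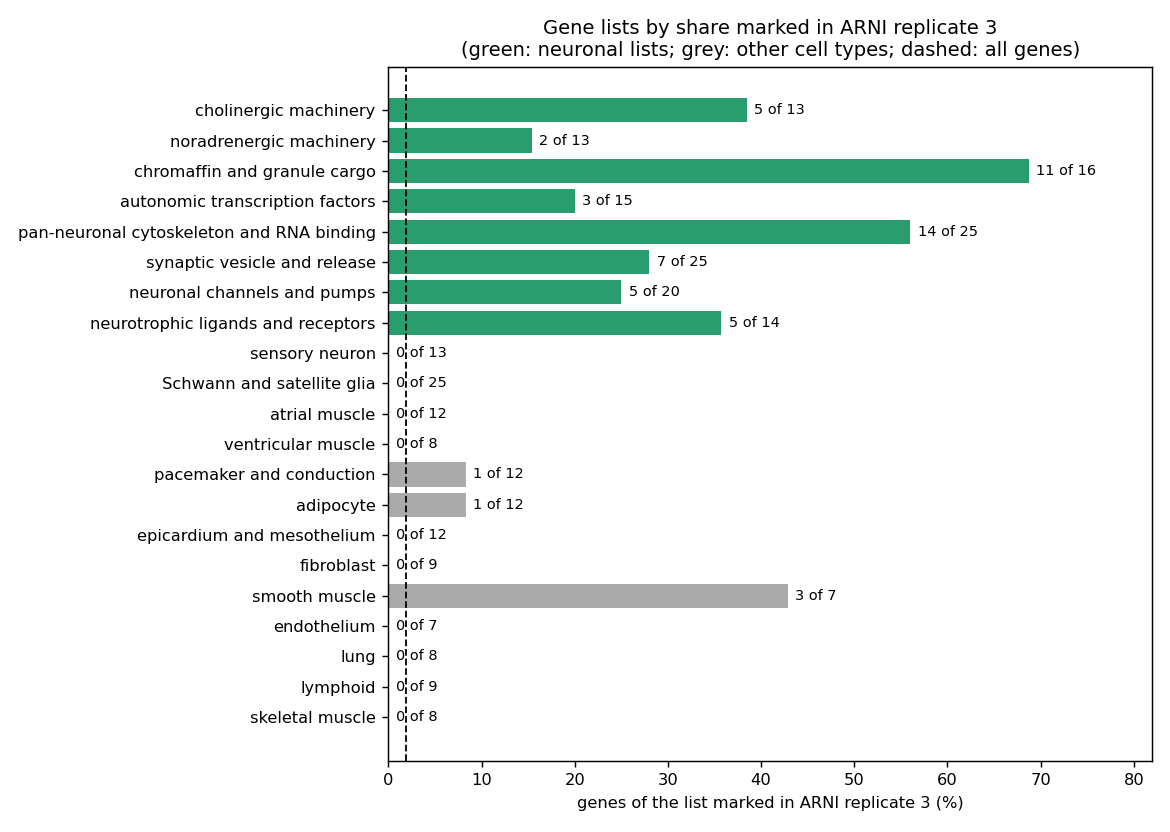
Share of the genes of each list that were marked in ARNI replicate 3, in percent, with the counts beside the bars. Green bars are the 9 neuronal lists and grey bars are other cell types. The dashed line is the share among the 15330 genes with at least 10 counts in some library (1.86%).

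The marked genes reached into other libraries at low level. ARB replicate 2 was the next highest library for 4 of the 8 marked members, for 14 of the 50 marked genes of the neuronal lists and for 83 of all 285 marked genes. WKY replicate 1 was next for 2 of those members, for 13 of those 50 genes and for 45 of those 285. The 7 members other than Prph and Dbh summed to 150 CPM in ARNI replicate 3, to 4.23 CPM in ARB replicate 2, and to 3.78 and 4.10 CPM in WKY replicates 1 and 2. In the other 8 libraries they summed to 0.0632 to 1.18 CPM. Leaving out a compared library cannot lower the ratios of the 8 marked members. Th had 1 read in ARNI replicate 3, below the 10 counts needed. Without ARB replicate 2 the number of marked members was therefore bound to stay at 8, and it is no check. Among the 15330 genes with at least 10 counts in some library, 2.35% were then marked. Without the 4 libraries that held little Myl7 the number of members was likewise bound to be 8, beside 2.31% of the 15330 genes.

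Genes outside the lists were ranked by Pearson correlation of log2(CPM + 0.5) with the mean of the 9 members. Over 12 libraries the 10 highest were Sult4a1 (r = 0.990), Celf6 (0.989), LOC108348130 (0.987), Actl6b (0.984), Lhfpl5 (0.979), Vat1l (0.977), Frmpd4 (0.976), Tmem114 (0.972), LRRTM1 (0.972) and Tagln3 (0.971). Sult4a1 is a sulfotransferase known from brain and Actl6b is a subunit of neuronal chromatin remodeling complexes. All 10 were marked in ARNI replicate 3, the point that sets these values: Vat1l was at 22.1 CPM (at most 0.825 elsewhere) and Sult4a1 at 9.63 CPM (at most 0.413). Over the 11 libraries without it the order was another, and the 10 highest included Prmt6 (0.876), Slc7a11 (0.842), LOC103694538 (0.836), Pgd (0.826), Tars1 (0.826), Acvr1c (0.824) and Celf6 (0.824). Celf6 was the only gene in both. Members are at a few reads in most of those 11 libraries, so these values rest on sparse counts.

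The comparison of SHR with WKY libraries did not use ARNI replicate 3. Genes with low counts were removed first, and of the 9 members only Prph and Dbh were tested. Prph was higher in SHRs: 12.2 ± 4.32 CPM against 4.52 ± 0.226 CPM (SD, n = 3 each), a log2 fold change of 1.31 ± 0.32 (SE; edgeR quasi-likelihood test, adjusted p = 0.0353), which passed the thresholds of the study (a log2 fold change of 1 or more in size, with an adjusted p not above 0.05). Of 13794 genes tested, 1226 (8.89%) passed, with 764 (5.54%) higher and 462 (3.35%) lower. Dbh was at 2.22 ± 0.345 CPM in SHRs and 1.01 ± 0.127 CPM in WKY rats, a log2 fold change of 0.99 ± 0.29 that missed both thresholds (edgeR, adjusted p = 0.0520). Every SHR library was above every WKY library for both genes, as was so for 33.7% of all genes tested. The call of Prph was lost in 1 fit of all 12 libraries (edgeR, adjusted p = 0.199) and without WKY replicate 1, 2 or 3 or SHR replicate 1 (0.113, 0.114, 0.121 and 0.110), with log2 fold changes between 1.11 and 1.61 whichever library was left out. Without SHR replicate 3, Dbh passed as well (log2 fold change 1.15, edgeR adjusted p = 0.0441).

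These 2 groups also differed in muscle type. Of 12 atrial muscle genes, 10 were called higher in SHRs, and Myl7 ranged from 4478 to 10641 CPM in SHR libraries and from 0.889 to 15.9 CPM in WKY libraries. In ARNI replicate 2, the treated SHR library with little Myl7, Prph was at 6.84 CPM, between the highest WKY library (4.70 CPM) and the lowest SHR library (7.25 CPM). Dbh was at 1.49 CPM there, likewise between WKY (at most 1.11) and SHR libraries (at least 1.83). The part of muscle type in the difference was not tested, and strain and muscle type cannot be told apart in the WKY group.

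Around these genes, 3 of the 6 granule and chromaffin genes tested were higher in SHRs and 0 lower, where 5.54% of all genes tested were higher and 3.35% lower. Pnmt had a log2 fold change of 2.33 ± 0.30 (edgeR, adjusted p = 0.00672), with 3.41, 2.44 and 4.40 CPM in SHR replicates 1 to 3 and 0.597, 0.609 and 0.622 CPM in WKY replicates 1 to 3; ARNI replicate 2 was at 0.786 CPM. The others were Pam, which amidates peptides and is abundant in atrial muscle (log2 fold change 2.36 ± 0.31), and Scg5 (2.52 ± 0.62). None of the 5 cholinergic, 10 noradrenergic, 3 transcription factor and 15 cytoskeletal genes tested was called. Among noradrenergic genes, Ddc had a log2 fold change of 0.43 ± 0.23 (edgeR, adjusted p = 0.216) and Slc18a2 of 0.15 ± 0.17 (adjusted p = 0.550). Synaptic vesicle genes were called in both directions, 3 higher (Sv2a, Nsg1, Atp6v1g2) and 2 lower (Vamp1, Rims1) of 21 tested. Of 9 channels and pumps 2 were higher and 1 lower, of 11 neurotrophic genes Ntf3 was higher and Bdnf lower, of 6 sensory genes Vsnl1 was higher, and of 20 glial genes Mbp and Mal were higher. With few genes in each list and 8.89% of all genes called, nothing is read from these counts about the lists. The median log2 fold change was 1.31 for the granule list, 0.64 for the cholinergic list and 0.18 for the noradrenergic list. It was 0.49 for the neurotrophic list, 0.43 for the glial list and 0.05 for the transcription factor list. Medians were negative for the cytoskeletal (-0.35), synaptic vesicle (-0.17), channel and pump (-0.33) and sensory (-0.40) lists. All genes tested had a median of 0.01.

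Snap25 differed in the other direction, but on few reads. It was removed as low in the edgeR fit; DESeq2, which kept it, called it lower in SHRs (log2 fold change -3.80, adjusted p = 0.0225). Without the filter edgeR gave -3.62 (adjusted p = 0.0685), and without WKY replicate 3 it called Snap25 (log2 fold change -4.17, adjusted p = 0.0465). WKY replicates 1 and 2 held 20.5 and 18.2 expected counts, and WKY replicate 3, with 1.39, lay within the range of the SHR libraries (0 to 2.41).

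**Figure D5:**
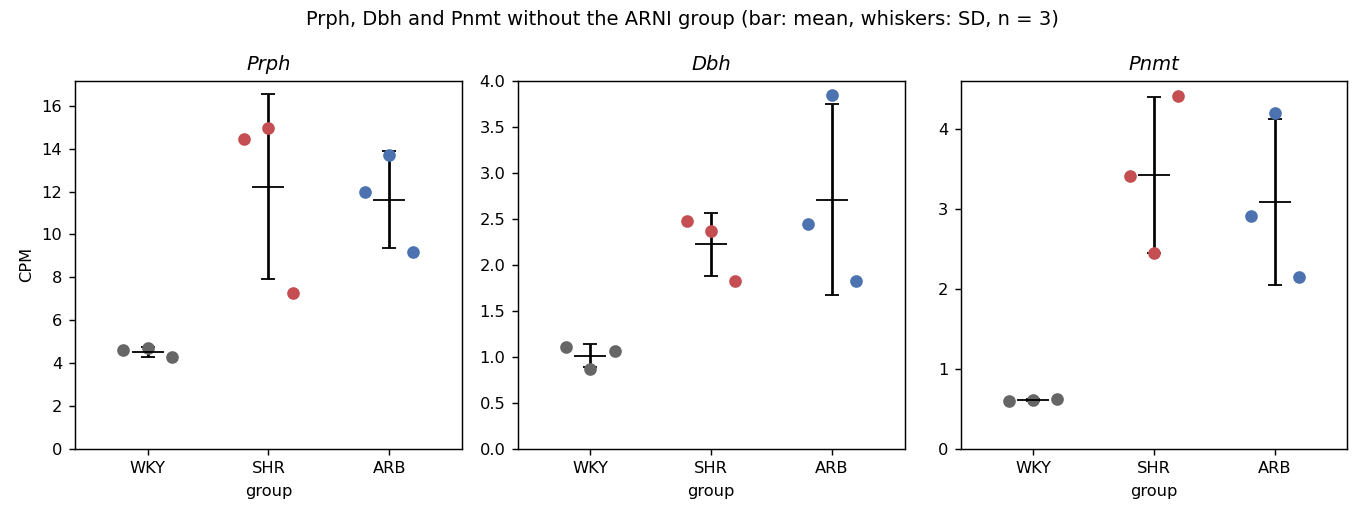
CPM of Prph, Dbh and Pnmt in each library of the WKY, SHR and ARB groups (points), with the mean (bar) and SD (whiskers, n = 3). For all 3 genes the WKY libraries lie below every SHR and ARB library; for Prph the WKY libraries lie between 4.27 and 4.70 CPM.

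Valsartan was compared with saline in SHRs, the comparison that asks whether blocking the angiotensin receptor moved these genes. Prph was at 11.6 ± 2.27 CPM in the ARB group and 12.2 ± 4.32 CPM in the SHR group, a log2 fold change of -0.07 ± 0.32 (edgeR, adjusted p = 0.9999). Dbh was at 2.71 ± 1.04 CPM against 2.22 ± 0.345 CPM, a log2 fold change of 0.29 ± 0.33 (adjusted p = 0.9999). Neither gene was called, the other 7 members were removed as low, and 0 of 13979 genes tested passed (0%; 225 genes at an unadjusted p under 0.05, and 3 called by DESeq2). This comparison shares the SHR libraries with the one above. The groups overlapped for both genes, and these intervals do not show that the levels were equal.

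The 2 comparisons of the ARNI group contain the library by which the genes were chosen and are given as values. Prph had a log2 fold change of 1.18 ± 0.80 against SHRs and 1.25 ± 0.74 against the ARB group, and Dbh of 1.56 ± 0.96 and 1.27 ± 0.95. Neither gene was called, the other 7 members were removed as low, and 0 of 13955 and 0 of 13948 genes passed (0% each; 227 and 539 genes at an unadjusted p under 0.05, and 7 and 18 called by DESeq2). With the replicate number as a block, the log2 fold changes against SHRs were 0.63 for Prph and 0.69 for Dbh. Without ARNI replicate 3 the log2 fold changes against SHRs and the ARB group were -0.20 and -0.12 for Prph and -0.44 and -0.72 for Dbh. In ARNI replicates 1 and 2, the members other than Prph and Dbh summed to 0.0632 and 0.0778 CPM, the lowest values of the 12 libraries.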

How the data were processed

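Left atrial poly(A) RNA of 12 rats had been read as 50-base single ends. The authors filtered reads with SOAPnuke, aligned them with HISAT2 (2.0.4) and Bowtie2 (2.2.5), with Rnor_6.0 named in the submitters' processing notes, and deposited RSEM expected counts per gene without normalization. Strandedness was not given in the sources used here. The table lists 37246 genes, 21239 with counts, and 23.6% of values are not whole. Its columns of the authors' own SHR and WKY comparison (log2 fold change and p-value) were not used.

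Expected counts were divided by library totals to give CPM, or rounded to whole numbers for edgeR 4.0.16 (R 4.3.3; filterByExpr, TMM, quasi-likelihood test on the 6 libraries of a pair, Benjamini-Hochberg adjustment). Standard errors were derived from the F statistic. DESeq2 1.42.0 was an alternative. Steps were tested on simulated counts. Intervals are exact Poisson or binomial and cover counting error only. Transcript lengths were not used here, so shares of reads over several genes are not shares of transcripts. Same-numbered ARNI and SHR libraries deviated together from their group means (correlations across genes 0.509, 0.464 and 0.185), so a fit with the replicate number as a block is also given for that pair. Replicate 2 of both groups also held the ventricular Myl2 (2298 CPM in SHR and 4161 CPM in ARNI), against at most 24.2 CPM in their other libraries. Pairing by number and muscle type cannot be told apart here. Nothing in the labels ties libraries to animals beyond separate samples, so p-values measure the spread between these libraries.

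The members and gene lists were chosen with earlier results of these data known. Named genes were the members, the 4 marked genes with the highest CPM in each of 21 other lists, fixed genes of transmitter pathways and glia, and the 10 genes outside the lists most like the members. Genes called in a list between SHR and WKY libraries were named after their values were seen. Some genes that this rule names are not reported here. Alternatives changed the test, scaling, filter, libraries in the fit, pairing, single libraries and the genes of the share.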

Additional observations from a re-analysis of the deposited data

How the results depend on the processing

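The number of members called between SHR and WKY libraries was 1, and it was 2 with DESeq2 (Prph, Snap25), 0 in 1 fit of all 12 libraries, and between 0 and 2 when single libraries were left out. It stayed at 1 with RLE size factors and without a filter. Replicate numbers did not pair the SHR and WKY libraries (correlations across genes of deviations between same-numbered libraries 0.0256, -0.0468 and -0.0748), nor ARB and SHR (0.418, -0.241 and -0.254) or ARNI and ARB libraries (0.516, -0.445 and -0.153). Between SHR and WKY, with a replicate block the count was 0, Prph having a log2 fold change of 1.24 (edgeR, adjusted p = 0.0645), and over all genes 681 were called in place of 1226. All genes called numbered 579 in the fit of all libraries and 348 to 2205 with single libraries left out. In the other 3 comparisons 0 of the members tested were called under the 11 alternatives each, most of which tested 2 members; in both ARNI comparisons DESeq2 gave no p for 6 of the 9. The log2 fold change of Prph between ARB and SHR libraries turned from -0.07 to 0.0032 with the replicate block and ranged from -0.36 to 0.15 with single libraries left out. With the block, Prph and Dbh were at 0.63 and 0.69 between ARNI and SHR libraries and at 0.66 and 0.34 between ARNI and ARB libraries. Without single libraries, Prph ranged from -0.20 to 1.62 (ARNI against SHR) and -0.12 to 1.69 (ARNI against ARB), and Dbh from -0.44 to 2.03 and -0.72 to 1.73; the negative values are those without ARNI replicate 3.

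The number of members marked in ARNI replicate 3 was 8 with TMM-scaled CPM, without the floor of 3 reads and, chosen after seeing the data, without ARB replicate 2, without the 4 libraries with little Myl7 and against the other ARNI libraries alone. Apart from the TMM scaling, these settings could only keep or raise the ratios of the 8 marked members. Th had 1 read in ARNI replicate 3, so under those settings the number was fixed in advance. The cholinergic share in ARNI replicate 3 was 61.3%, 98.8% for Chat against Th, and 37.0% with the transporters and Ddc added. The share per transcript length was not run, since no transcript lengths were used here. Depth limits Th, Slc18a3 and Nefl outside ARNI replicate 3, where most libraries held 0 to 3 reads.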
